A study of Mus musculus with 4 samples.

Results

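Genes that carry iron and heme into, through and out of cells, or that set how readily a cell dies by ferroptosis, were followed in mouse kidney cells after ischemia-reperfusion injury (IRI). They are 31 genes chosen by symbol: iron transport, storage and sensing, heme breakdown and synthesis, scavenging of haemoglobin and heme, and the lipid peroxide defence. All 31 had 1 row in each of the 4 matrices, 31 of 27998 rows. The values come from droplet single-cell RNA sequencing of BAC-CluGFP kidneys, with 1 library from untreated mice and 1 each from mice taken 2, 7 and 30 days after 35 min of IRI. All 4 groups carry the reporter, a bacterial artificial chromosome that drives green fluorescent protein (GFP) from the clusterin gene, and only sorted GFP+ cells were read. Kidneys were perfused and red cells were lysed before the sort, per the labels' protocols, and the labels do not state how many animals a library pools, nor their background strain, age or sex. 

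Cells take up iron bound to transferrin through the transferrin receptor, keep the surplus inside ferritin and release it through ferroportin, the only iron exporter known in mammals. Phagocytes that clear dead cells and red cells also take up heme, which heme oxygenase 1 opens into iron, carbon monoxide and biliverdin. Ferroptosis is a death driven by iron and peroxidized membrane lipids. Cystine uptake by Slc7a11 and the glutathione peroxidase Gpx4 hold it back, and the acyl-CoA synthetase Acsl4, which puts polyunsaturated fatty acids into membranes, makes cells prone to it. Proximal tubule injured by ischemia is a textbook site of it.

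Several members carry an iron-responsive element, a hairpin that the iron regulatory proteins (the products of Aco1 and Ireb2) bind when iron is scarce. In a 5′ untranslated region it blocks translation, and in the 3′ untranslated region of the transferrin receptor it protects the mRNA from decay. A transcript count therefore bears on the receptor's control more directly than on that of ferritin or ferroportin. The elements are printed because the results below turn on these 4 genes, with the 6-base loop in capitals. They were read 5′ to 3′ on the gene's strand from GENCODE M21 transcripts on GRCm38.
Fth1 5′ UTR, chr19:9982732-9982760 (plus strand): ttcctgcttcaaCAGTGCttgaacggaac
Ftl1 5′ UTR, chr7:45459779-45459807 (minus strand): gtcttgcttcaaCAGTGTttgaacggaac
Slc40a1 5′ UTR, chr1:45925465-45925493 (minus strand): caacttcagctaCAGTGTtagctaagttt
Tfrc 3′ UTR, chr16:32631219-32631247 (plus strand): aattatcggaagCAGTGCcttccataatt
Tfrc 3′ UTR, chr16:32631598-32631626 (plus strand): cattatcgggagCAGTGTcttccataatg
Tfrc 3′ UTR, chr16:32631663-32631691 (plus strand): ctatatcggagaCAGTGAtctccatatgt
Tfrc 3′ UTR, chr16:32631710-32631738 (plus strand): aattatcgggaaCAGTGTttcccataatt
The search asked for the loop CAGTGN, a stem of 5 paired bases around it and a bulged C just before the stem, and it matched the untranslated regions of 123 of 21877 protein-coding genes (0.562%). Of the 31 members, 4 matched: Fth1 and Ftl1, the ferritin heavy and light chains, and Slc40a1 (ferroportin) with 1 element each, and Tfrc (transferrin receptor) with 4. A match is a description of these letters and does not show binding. Elements with another loop or stem are missed by this search. A member without a match may therefore still carry one, and Tfrc may carry more than those printed.

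The libraries held 1930 to 9286 barcodes with 49397016 to 98818914 unique molecular identifiers (UMIs, 1 per captured transcript), and 1920 to 8310 cells were kept. The day 7 library is the smallest and deepest, with a lowest barcode of 18362 UMIs against 2335 to 5976 in the others. The limit on mitochondrial UMIs removed 29.5% of the untreated barcodes and 34, 0 and 45 barcodes of the IRI libraries. Between 18 and 49 barcodes of a library also occurred in another. Doublets were removed with Scrublet, which marked 1 of 9286 untreated barcodes and so did not work there. Cells were assigned by marker genes, none of them a member: a class was gated where its markers took at least 10 of 10000 UMIs, or 3 times the share seen in cells that should lack them, and at least 2 times any other class.

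Macrophage, monocyte and dendritic markers gated 60, 2845, 384 and 2385 cells, in the order untreated, day 2, day 7 and day 30. These are called mononuclear phagocytes below. C1qa was among their genes of highest fold in each library, but others there differed. They included H2-Aa untreated, Mrc1 at day 2, Mmp12 and Arg1 at day 7 and Ccr2 at day 30. The kinds of cell pooled may thus differ between libraries, and the part of this in the ratios to untreated was not tested. Neutrophil markers gated 13, 2544, 4 and 10 cells. The tubule gates held 1570, 103, 578 and 520 proximal tubule cells, 671, 596, 116 and 363 thick ascending limb cells, 320, 252, 11 and 40 distal convoluted and connecting tubule cells, 299, 304, 47 and 146 principal cells and 824, 107, 20 and 96 intercalated cells. The sort asked for the reporter, but clusterin (Clu) transcripts were uneven among the gates: 65.7, 123, 246 and 108 CPM in mononuclear phagocytes, 12.3, 219, 426 and 294 in proximal tubule and 583, 15679.8, 13369 and 5507 in principal cells. In every gate with at least 50 cells, at least 2 markers of its own list were among the 10 genes of highest fold, apart from the parietal gate of day 7 with 1, and none of another list were. Cells were gated on these same markers, so this is no independent check of the gates. The untreated proximal tubule gate is the least sharp: its threshold was 68.8 of 10000 UMIs against 10 in the other libraries, and 738 cells lay near it. Mitochondrial genes took 23.2% of its UMIs and 14.3, 5.62 and 9.42% of those at days 2, 7 and 30. In thick ascending limb they took 22.7% untreated and 7.88, 4.43 and 7.76% later. Untreated cells of the other tubule gates carried proximal tubule RNA. The proximal tubule gene Slc34a1 stood at 434 to 535 CPM in them and at 1.66 to 11.1 CPM at day 2. Its level in untreated proximal tubule was 3830 CPM. The part of that RNA in the tubule ratios to untreated was not tested.

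Levels are UMIs of a gene per 1000000 UMIs of the class (CPM), summed over the cells of a library. Where 4 values of a gene follow each other without labels, they are in the order untreated, day 2, day 7 and day 30. A member was measured in a comparison with at least 20 CPM in either sum and 20 UMIs in both together, and counted as called when its CPM ratio was 2 or more in either direction with an exact 95% Poisson interval that did not hold 1. Intervals speak to counting error alone. No replicate libraries exist to give a spread, so nothing was tested. Classes with at least 50 cells on both sides gave 14 comparisons with the untreated library, 3 in mononuclear phagocytes and 11 in tubule, and all of them share that library.

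Of the 31 members, 15 were called in at least 1 of the 14 comparisons: 8 only higher, 5 only lower, and Trf and Alas1 in both directions. Those 15 are 53.6% of the 28 members measured at least once. Of all 9727 genes measured at least once, 65.6% were called in at least 1 of the 14, 43.5% only higher, 17.5% only lower and 4.5% in both directions. Having a call was thus no more frequent among the members than among all genes. Over all genes measured, the share called higher ran from 7.75% in principal cells at day 2 to 36.5% in proximal tubule at day 7, and the share called lower from 4.08 to 11.9%. Cp was called higher in 10 of the 10 comparisons where it was measured, Hp in 7 of 7, Hmox1 in 8 of 9, Acsl4 in 8 of 14 and Slc40a1 in 7 of 13. Slc11a1 was called higher in 3 of 3, and Steap3 and Slc7a11 in 2 of 2 each. Cp, Hp, Slc11a1, Steap3 and Slc7a11 lay under the minimum CPM in each untreated class compared. They were thus measured only where the IRI level reached it, so no lower call was possible for them. Left out at day 2 were Cp ratios of 0.211 in mononuclear phagocytes and 86.5 in thick ascending limb. Principal cells, at 0.325, and distal convoluted and connecting tubule, at 0.764, were also left out, with intervals that held 1. Tfrc was called lower in 6 of 14 and Ftl1 in 4 of 14, whereas Fth1, Aco1 and Blvra were called lower once each. Another 13 members were measured and never called, among them Gpx4, Slc3a2, Pcbp1, Pcbp2, Ireb2, Fbxl5, Lpcat3, Blvrb and Slc48a1, which were measured in all 14. Hpx, Cd163 and Ncoa4 reached the minimum in none.

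**Figure D1:**
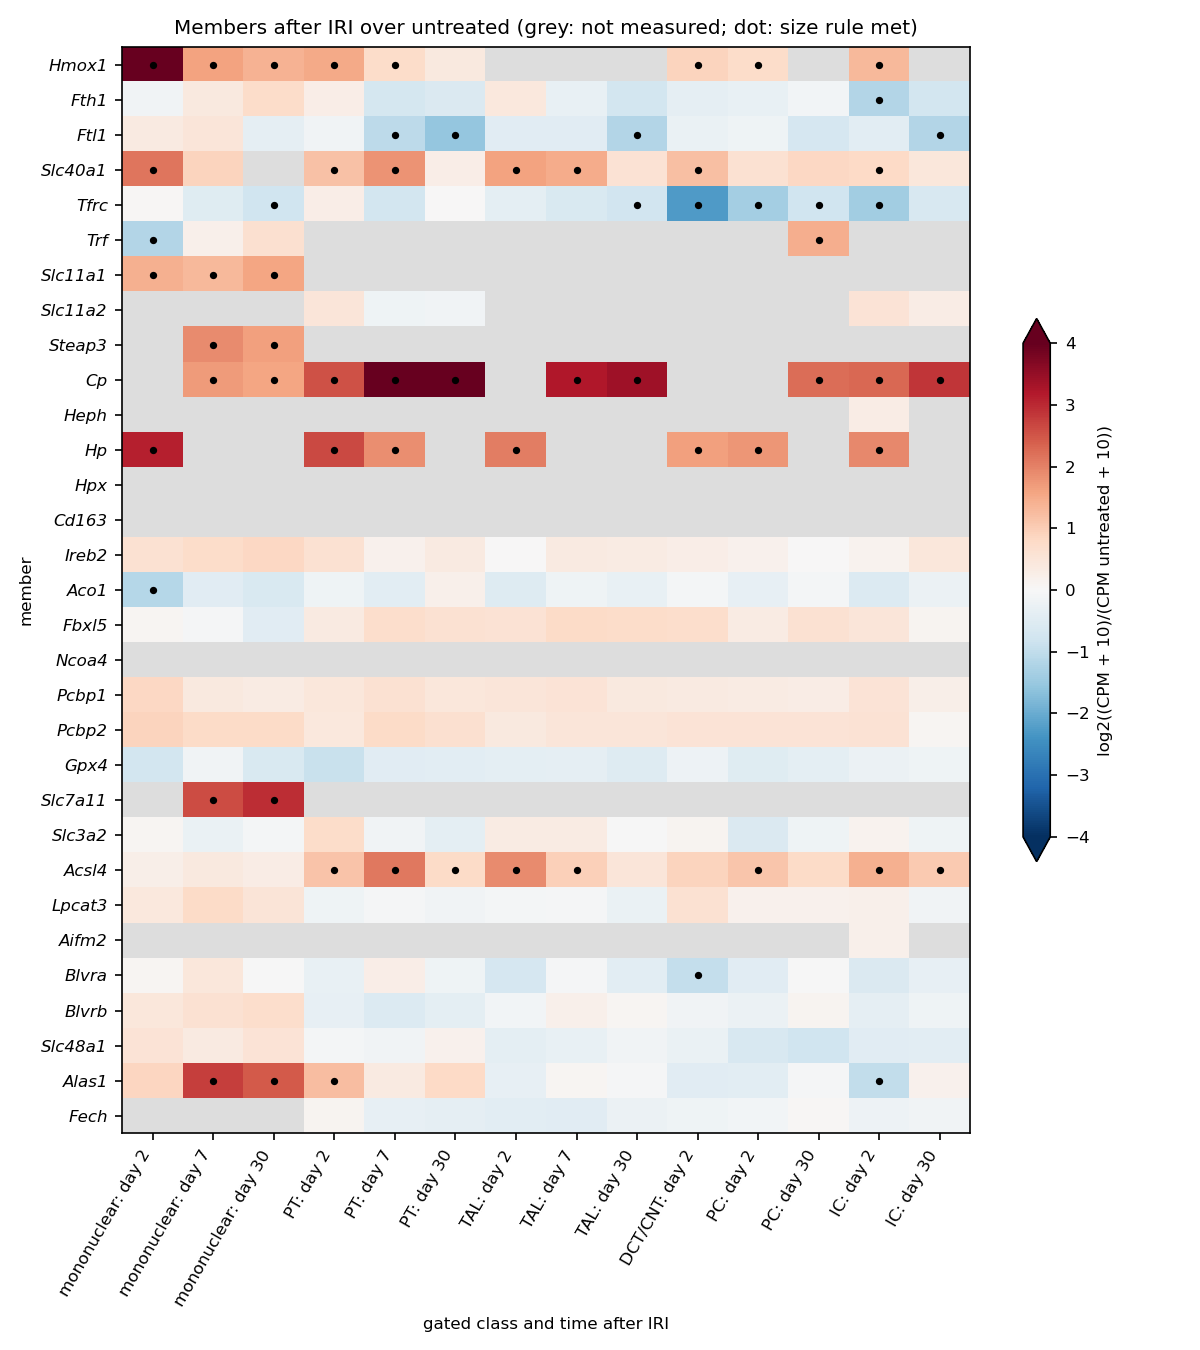
Log2 ratio of each member (rows), as log2((CPM + 10)/(CPM untreated + 10)), in the 14 comparisons of an IRI library with the untreated one (columns, by gated class and day), where red is higher after IRI, grey is not measured and a dot marks a call. Cp, Hp, Hmox1 and Slc40a1 are red wherever they are called, Tfrc and Ftl1 are blue wherever they are called, and the rows of Pcbp1, Pcbp2 and Gpx4 hold no dot.

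Hmox1 was highest at day 2. Hmox1 (heme oxygenase 1, chr8:75093621-75100589 on GRCm38) stood in mononuclear phagocytes at 29.6 CPM untreated and 719, 111 and 94.7 CPM on days 2, 7 and 30. The day 2 value was 24.3-fold (95% interval 12.8 to 53.2) the untreated one, which rests on 9 UMIs in 60 cells. At days 7 and 30 the ratios were 3.75-fold (95% interval 1.97 to 8.23) and 3.20-fold (95% interval 1.69 to 7.02), so Hmox1 was called higher at each time. With each cell thinned to 2000 UMIs, the share of mononuclear phagocytes with an Hmox1 UMI was 6.67, 22.8, 19.0 and 12.0%, and unthinned 13.3, 51.0, 80.2 and 39.7%. Among thick ascending limb cells, which served as the background class, the thinned share was 0.745, 2.52, 0 and 1.38% and the unthinned one 2.09, 17.1, 24.1 and 6.06%. Median depths at day 2 were 11618 UMIs in the former and 13594 in the latter. Mononuclear phagocytes held 85.1% of the day 2 library's Hmox1 UMIs, 53.3% at day 7 and 79.4% at day 30, while in the untreated library the proximal tubule gate held 44.4%.

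The enzymes after heme oxygenase did not meet the size rule in these cells. Blvra and Blvrb, the biliverdin reductases, stood at 69.0, 72.5, 97.5 and 68.7 CPM and at 95.2, 135, 152 and 163 CPM in time order. Slc48a1, which moves heme out of the phagolysosome, stood at 52.5, 80.4, 69.4 and 80.6 CPM. Haptoglobin (Hp), the plasma protein that binds free haemoglobin, had 0 UMIs in the untreated cells, which allows 9.85 CPM, and 75.8, 15.5 and 6.28 CPM at days 2, 7 and 30. The day 2 level was 7.70 times a floor of 3 untreated counts, which is not a lower limit of the ratio. Cd163, the receptor for haptoglobin-bound haemoglobin, stayed at 9.85, 10.2, 5.03 and 7.31 CPM and Hpx, which binds free heme in plasma, at no more than 0.214 CPM.

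Slc40a1 was called higher at day 2, Slc11a1 at each time and Steap3 at days 7 and 30. Slc40a1, the exporter, stood at 9.85 CPM untreated and 78.5, 27.0 and 17.6 CPM on days 2, 7 and 30 in mononuclear phagocytes, with 3 UMIs untreated, and was 7.96-fold (95% interval 2.72 to 38.6) higher at day 2. Slc11a1 (Nramp1), which pumps iron out of the phagosome, stood at 19.7, 70.4, 62.6 and 79.5 CPM and was higher by 3.57-fold (95% interval 1.64 to 9.74), 3.18-fold (95% interval 1.45 to 8.70) and 4.03-fold (95% interval 1.85 to 11). As a mean over cells the day 7 ratio was 1.97, just short of a call. Steap3, an endosomal ferrireductase, had 0 UMIs untreated and 16.1, 27.3 and 21 CPM later. Its level was 2.77 times the floor of 3 untreated counts at day 7 and 2.13 times at day 30. Slc11a2, the other divalent metal transporter, was not measured, at 9.85, 10.7, 13.3 and 16.7 CPM, nor was Heph, a ferroxidase like ceruloplasmin, at 0, 0.361, 0.75 and 1.20 CPM. At day 30 Slc40a1 missed the measured minimum.

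Transferrin and its receptor went opposite ways between days 2 and 30. Trf (chr9:103204001-103230444), which encodes transferrin itself, stood at 217 CPM untreated and 91.1, 252 and 342 CPM on days 2, 7 and 30. It was 2.38-fold (95% interval 1.83 to 3.03) lower at day 2 than untreated and 3.75-fold (95% interval 3.60 to 3.91) higher at day 30 than at day 2. Tfrc stood at 23.0, 24.1, 13.4 and 9.05 CPM and was 2.54-fold (95% interval 1.01 to 5.32) lower at day 30 than untreated, with 7 UMIs in the untreated cells, and 2.66-fold (95% interval 2.29 to 3.1) lower than at day 2. With free RNA subtracted, or as a mean over cells, the Tfrc call against untreated was lost, with ratios of 0.392 and 0.503. Aco1, which doubles as an iron regulatory protein, stood at 49.3, 17.1, 33.1 and 28.6 CPM and was 2.88-fold (95% interval 1.60 to 4.78) lower at day 2. Its partner Ireb2 stood at 13.1, 25.5, 28.2 and 30.9 CPM and was not called, nor was Fbxl5, the iron sensor that marks Ireb2's product for decay, at 62.4, 67.1, 60.2 and 42.3 CPM.

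Ferritin transcripts were abundant in these cells and were never called there. Fth1 stood at 9806, 8822, 12847 and 16395 CPM and Ftl1 at 6154, 7815, 8689 and 4747 CPM, and together they took 1.60, 1.66, 2.15 and 2.11% of the UMIs. Reads shared with near-identical ferritin copies are uncertain: the annotation holds 5 such copies and 1 of them has a row in the matrices. Ncoa4, which carries ferritin to the lysosome, stood at 16.4, 7.25, 11.1 and 5.45 CPM. Pcbp1 and Pcbp2, the chaperones that load iron into ferritin, stood at 184, 332, 243 and 231 CPM and 236, 443, 409 and 413 CPM, with no call.

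Slc7a11 and Alas1 were called higher at days 7 and 30. Slc7a11, the cystine carrier (chr3:49892526-50443614 on GRCm38), had 0 UMIs in untreated mononuclear phagocytes and 15.5, 50.6 and 66.9 CPM at days 2, 7 and 30. Its level was 5.14 times the floor of 3 untreated counts at day 7 and 6.79 times at day 30. It was 4.32-fold (95% interval 3.92 to 4.76) higher at day 30 than at day 2. Thinned to 2000 UMIs, 7.76% of mononuclear phagocytes and 0.551% of thick ascending limb cells had a UMI at day 30. Unthinned, the shares were 23.9% and 3.58%, at median depths of 8643 and 9104 UMIs. Its partner chain Slc3a2 stood at 154, 164, 128 and 144 CPM and was not called. Alas1, which starts heme synthesis (chr9:106233455-106248654), stood at 9.85, 26.0, 126 and 98.6 CPM, 12.8-fold (95% interval 4.38 to 62.3) higher at day 7 and 10.0-fold (95% interval 3.42 to 48.6) at day 30, on 3 untreated UMIs. Fech, which ends it, stood at 16.4, 15.2, 16.7 and 13.9 CPM.

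The Slc7a11 promoter is shown because 2 copies of a stress-response motif face each other in it. The stretch runs from 86 to 20 bases before the start of transcription, chr3:50443633-50443699 on GRCm38.p6, printed on the gene's minus strand from RefSeq, with both motif copies in capitals.
Slc7a11 promoter: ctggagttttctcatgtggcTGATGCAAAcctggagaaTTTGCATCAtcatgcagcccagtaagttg
The motif is TGATGNAAN, the composite element bound by ATF4, and it was searched on both strands of the 250 bases before the start. It was found in 1129 of 32851 promoters (3.44%), and 2 or more copies in 13 of them (0.0396%). The table held promoters for 22 of the 31 members, and Slc7a11 alone among them had this motif. Another 2 motifs were searched in the same windows. TGACNNNGC, the antioxidant response element, was in 3338 promoters (10.2%), those of Blvra, Hpx and Ncoa4 among them, and CACGTG, the core of the lysosomal gene element, in 1978 (6.02%), that of Pcbp1 among them. A match says nothing of whether a factor was bound, nor does a missing one.

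Gpx4, Acsl4 and Lpcat3 were not called in mononuclear phagocytes. Gpx4 stood at 388, 231, 352 and 249 CPM, with ratios of 0.595 (95% interval 0.496 to 0.72), 0.909 (95% interval 0.757 to 1.10) and 0.644 (95% interval 0.536 to 0.779) to the untreated value. Acsl4 stood at 46.0, 55.5, 62.6 and 59.2 CPM and Lpcat3, which esterifies the same fatty acids, at 16.4, 25.5, 34.5 and 27.9 CPM. The Lpcat3 ratio at day 7 was 2.10 (95% interval 0.891 to 6.51), on 5 untreated UMIs. Aifm2 (Fsp1), a further brake on ferroptosis, was at 9.85, 6.50, 15.5 and 10.5 CPM and not measured. Cp (chr3:19957054-20009145), the ferroxidase ceruloplasmin, stood at 16.4, 3.47, 76.1 and 69.1 CPM and was 4.64-fold (95% interval 1.98 to 14.3) higher at day 7 and 4.21-fold (95% interval 1.80 to 13.0) at day 30. It is taken up below, since it was higher in each tubule class compared at those times as well.

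In mononuclear phagocytes the members called were, of 21, 23 and 22 measured at days 2, 7 and 30, 4 higher and 2 lower, 6 higher and 0 lower, and 6 higher and 1 lower. Calls over all measured were 12.8% of genes higher and 11.9% lower at day 2, 11.5% of genes higher and 9.29% lower at day 7 and 9.51% of genes higher and 8.81% lower at day 30. The members' median log2 ratio was 0.43 against 0.13 for all genes at day 2, 0.50 against 0.15 at day 7 and 0.58 against 0.10 at day 30. The untreated side is 60 cells with 304500 UMIs, and they carried other cells' RNA: the proximal tubule list summed to 1789.8 CPM there and to 16.2, 161 and 120.4 CPM later. Its part in these ratios was not tested. Between IRI libraries, which do not use those cells, 4 members were higher and 3 lower at day 7 than at day 2, where 6.58% of genes higher and 3.65% lower were called over all measured. At day 30 against day 2 it was 4 higher and 4 lower of 24, where 7.99% of genes higher and 6.5% lower were called over all measured. At day 30 against day 7, 0 of 22 measured members were called, where 2.51% of genes higher and 2.45% lower were called over all measured.

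**Figure D2:**
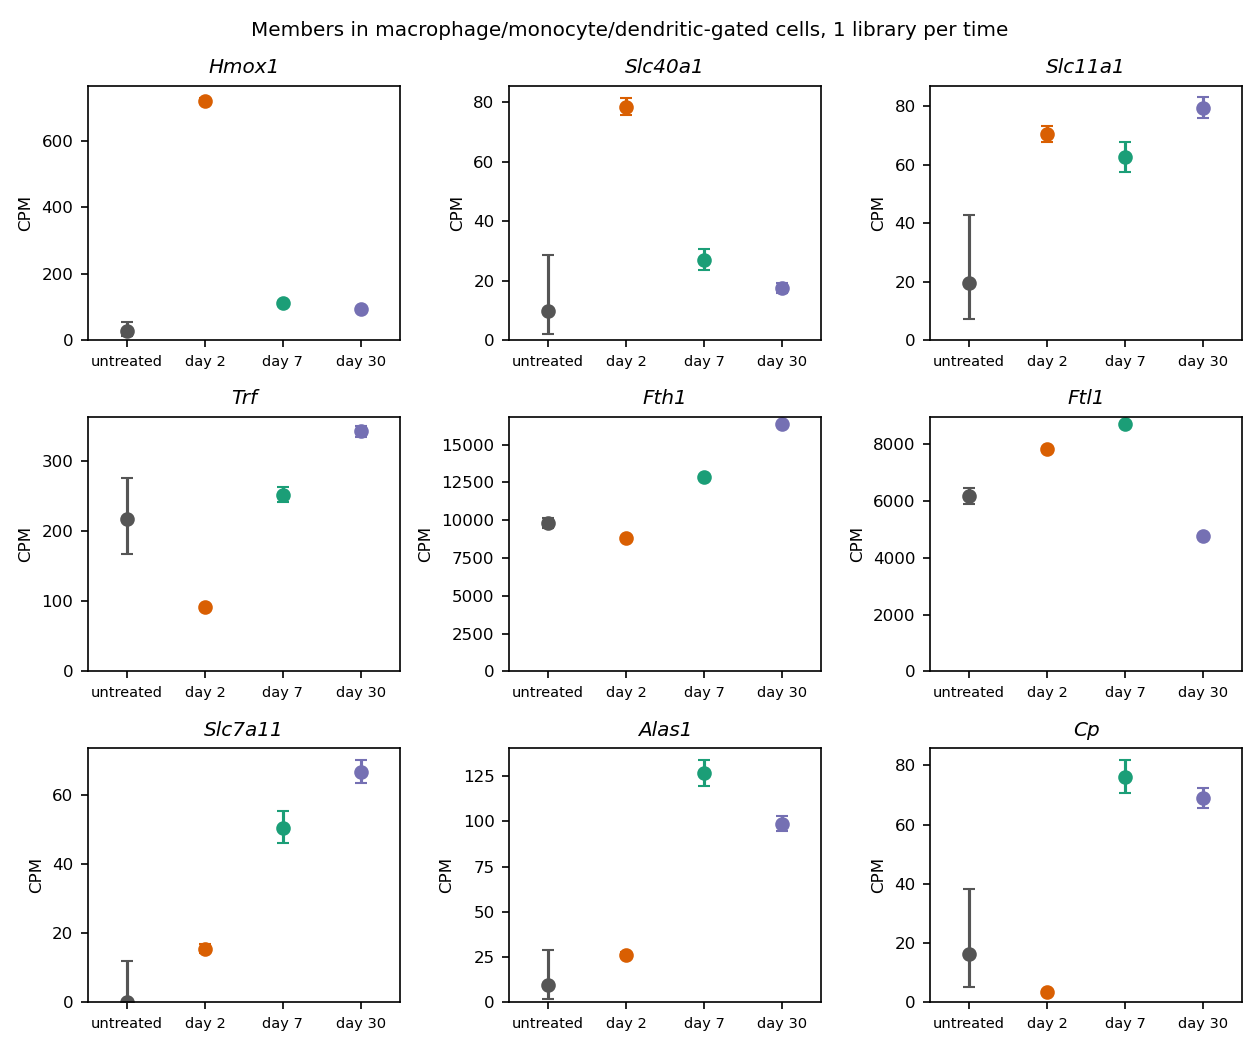
CPM of 9 members in mononuclear phagocytes (y axis, linear from 0, own scale per gene) in the untreated library and at days 2, 7 and 30 after IRI (x axis), where points are sums over the cells of 1 library and bars are exact 95% Poisson intervals. Hmox1 and Slc40a1 are highest at day 2, Trf is lowest at day 2, and Slc7a11, Alas1 and Cp are high at days 7 and 30.

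Neutrophil-gated cells were plentiful in the day 2 library, with 2544 cells against 13, 4 and 10 elsewhere, and were set against the mononuclear phagocytes of that library. Their iron genes differed in both directions: of 21 members measured, 5 were higher and 4 lower, where 21.4% of genes higher and 33.5% lower were called over all measured. Hp (chr8:109575128-109579172), which neutrophils store in their granules, stood at 1289 CPM in neutrophils and 75.8 in mononuclear phagocytes, 17-fold (95% interval 16.3 to 17.7) higher. Slc7a11 stood at 359 and 15.5 CPM, 23.2-fold (95% interval 21.2 to 25.3) higher. Neutrophils held 84.8% of the library's Slc7a11 UMIs and 80.4% of its Hp UMIs. The iron sensor Fbxl5 was 8.49-fold (95% interval 8.12 to 8.89) higher, at 570.2 and 67.1 CPM.

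Ferroportin was higher in neutrophils than in mononuclear phagocytes, the cell type better known for exporting iron. Slc40a1 stood at 241 and 78.5 CPM, 3.07-fold (95% interval 2.92 to 3.22) higher, and Alas1 at 64.7 and 26.0 CPM, 2.49-fold (95% interval 2.27 to 2.72) higher. In cells thinned to 2000 UMIs, 34.9% of neutrophils and 5.83% of mononuclear phagocytes had a Slc40a1 UMI, and unthinned 62.9 and 15.2%. Median depths were 5159 and 11618 UMIs. The heme breakdown genes were the lower ones: Hmox1 stood at 90.4 CPM in neutrophils, 7.96-fold (95% interval 7.54 to 8.41) lower, and Blvra, Blvrb and Slc48a1 were 5.51-fold, 5.85-fold and 2.89-fold lower. Fth1, at 8320.4 and 8822 CPM, Ftl1, at 4271 and 7815 CPM, and Gpx4, at 205 and 231 CPM, were within 2-fold.

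The 13 untreated neutrophils are too few for a comparison but can be set beside those of day 2. They stood at 1283 CPM for Hp, 302 for Slc7a11 and 277 for Slc40a1, against 1289, 359 and 241 at day 2. Fbxl5 stood at 151 CPM, with a Poisson interval of 55.4 to 329, and at 570.2 at day 2. High Hp, Slc7a11 and Slc40a1 were thus already present in neutrophils of the untreated library, within wide intervals. When neutrophils are joined to the mononuclear phagocytes, the Slc40a1 ratio to untreated changes from 7.96 to 3.13 at day 2, from 2.74 to 0.663 at day 7 and from 1.79 to 0.438 at day 30.

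**Figure D3:**
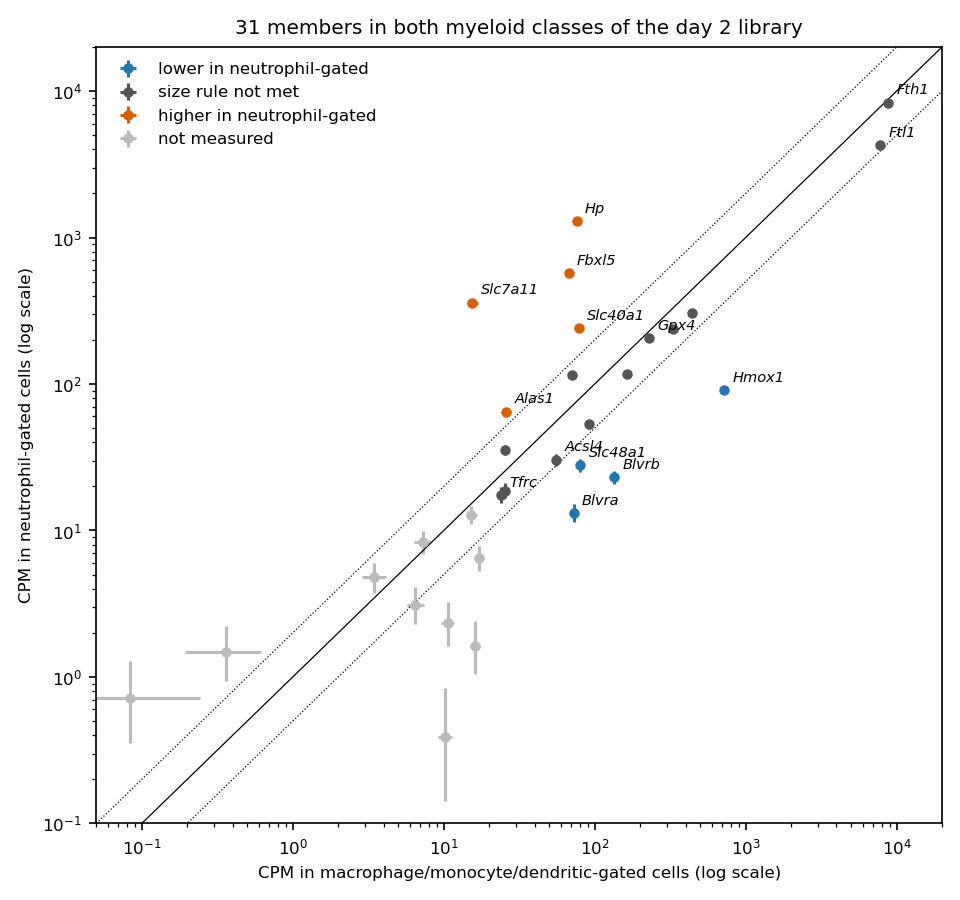
CPM of the 31 members in neutrophil-gated cells (y axis, log scale) against mononuclear phagocytes (x axis, log scale) of the day 2 library, with exact 95% Poisson bars, a solid line of equal CPM and dotted lines at 2-fold. Hp, Slc7a11, Fbxl5, Slc40a1 and Alas1 lie above the upper dotted line, and Hmox1, Blvra, Blvrb and Slc48a1 lie below the lower one.

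In proximal tubule-gated cells Cp, Slc40a1, Acsl4, Hp and Hmox1 were higher after IRI and ferritin light chain was lower. Slc40a1 stood at 28.6 CPM untreated and 78, 125 and 36.6 CPM on days 2, 7 and 30, 2.72-fold (95% interval 2.20 to 3.35) higher at day 2 and 4.37-fold (95% interval 3.96 to 4.84) at day 7, and 3.42-fold (95% interval 2.99 to 3.93) lower at day 30 than at day 7. Acsl4 (chrX:142317993-142390535) stood at 18 CPM untreated and 51.3, 110.0 and 37.6 CPM on days 2, 7 and 30, a ratio of 2.86 (95% interval 2.18 to 3.70), 6.12 (95% interval 5.42 to 6.94) and 2.10 (95% interval 1.77 to 2.49) to untreated. Both genes were highest at day 7 and came down by day 30. A gate with its minimum share doubled took the Acsl4 ratios to 2.00, 4.29 and 1.22, where the first is short of 2 before rounding and the day 7 call alone was kept, and the Slc40a1 ratio at day 2 to 1.82. Median scaling also ended the day 30 call of Acsl4, at 1.39, and the day 2 call of Slc40a1, just under 2.

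Gpx4 (chr10:80047166-80056439), which detoxifies peroxides of such lipids, stood at 1236, 658, 895 and 919.6 CPM in the same cells. Its ratios to untreated were 0.533 (95% interval 0.498 to 0.569), 0.724 (95% interval 0.709 to 0.74) and 0.744 (95% interval 0.723 to 0.766), under 1 but short of a call. Slc7a11 stayed near 0, at 0, 6.32, 2.55 and 3.34 CPM. Slc3a2 stood at 101, 176, 90.0 and 74.5 CPM and was 2.37-fold (95% interval 2.02 to 2.76) lower at day 30 than at day 2. Lpcat3 and Aifm2 stood at 67.8, 59.0, 65.4 and 60.9 CPM and 8.80, 4.92, 14.3 and 8.96 CPM. Scaling on the median gene, which moves all proximal tubule ratios down by 0.45, 0.72 and 0.60 on the log2 scale, put Gpx4 at 0.391, 0.44 and 0.492, a call at each time. With the gate's minimum share doubled, its day 7 and day 30 ratios were 1.04 and 1.13, above 1.

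Ferritin light chain was lower in proximal tubule at days 7 and 30. Ftl1 stood at 4723 CPM untreated and 4281, 2274 and 1604 CPM on days 2, 7 and 30, 2.08-fold (95% interval 2.05 to 2.10) lower at day 7 and 2.94-fold (95% interval 2.89 to 3.01) at day 30. Fth1 stood at 8809.9, 10529, 5376 and 5857 CPM, with ratios of 1.20, 0.61 and 0.665, and was not called. These values depend on which cells are gated. With the minimum share doubled, the Ftl1 ratios were 0.641 and 0.48, so the day 7 call was lost, and the Fth1 ratios were 1.00 and 1.12. Tfrc stood at 43.1, 53.4, 21.9 and 43.4 CPM, with a ratio of 0.508 (95% interval 0.445 to 0.578) at day 7 that missed a call. Of the other settings, 5 made it one, at 0.308 with median scaling to 0.496 with a common UMI floor. Tfrc was 2.44-fold (95% interval 1.88 to 3.14) lower at day 7 than at day 2.

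Hmox1 stood at 15.2 CPM untreated and 62.5, 31.6 and 23.2 CPM on days 2, 7 and 30 in proximal tubule, 4.11-fold (95% interval 3.20 to 5.25) and 2.08-fold (95% interval 1.78 to 2.42) higher at days 2 and 7. The day 7 ratio was 1.26 with median scaling and 1.69 without mitochondrial UMIs, no longer a call. Alas1 stood at 34.9, 94.8, 47.2 and 68.3 CPM and was 2.72-fold (95% interval 2.24 to 3.28) higher at day 2. Hp stood at 0.293, 54.1, 27.2 and 4.86 CPM, 184-fold (95% interval 75.7 to 584) higher at day 2 and 92.8-fold (95% interval 39.5 to 287) at day 7. Slc11a2, a ferrous iron importer, was not called, at 30.9, 47.1, 26.5 and 26.9 CPM, and Aco1 stood at 120.2, 106, 88.0 and 139 CPM. Of 22, 22 and 21 members measured, 6 were higher and 0 lower at day 2, 5 higher and 1 lower at day 7, and 2 higher and 1 lower at day 30. Calls over all measured were 19.0% of genes higher and 4.08% lower at day 2, 36.5% of genes higher and 9.03% lower at day 7 and 29.2% of genes higher and 5.23% lower at day 30. Between IRI libraries, 2 members of 22 were higher and 2 lower at day 7 than at day 2 (12.3% of genes higher and 8.71% lower), 0 higher and 3 lower of 22 at day 30 than at day 7 (4.0% of genes higher and 2.04% lower), and 1 higher and 5 lower of 22 at day 30 than at day 2 (7.76% of genes higher and 4.85% lower). The members' median log2 ratio was 0.39 against 0.35 for all genes at day 2, 0.07 against 0.57 at day 7 and 0.17 against 0.46 at day 30.

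In the thick ascending limb, Acsl4 was 4.11-fold (95% interval 3.67 to 4.62) higher at day 2 and 2.11-fold (95% interval 1.82 to 2.45) at day 7, at 61.6 CPM untreated and 253, 130.0 and 89.1 CPM on days 2, 7 and 30. Slc40a1 stood at 25.8 CPM untreated and 99.0, 89.8 and 44.1 CPM on days 2, 7 and 30, 3.83-fold (95% interval 3.21 to 4.60) higher at day 2 and 3.48-fold (95% interval 2.83 to 4.29) at day 7. Both were highest at day 2. Ftl1 stood at 1769, 1300.0, 1284 and 775 CPM and was 2.28-fold (95% interval 2.19 to 2.38) lower at day 30, and Tfrc at 38.0, 26.3, 21.3 and 18.4 CPM, 2.06-fold (95% interval 1.58 to 2.73) lower at day 30. Fth1 stood at 4821, 6530.1, 3923 and 2866 CPM and Gpx4 at 762, 573, 590.5 and 525 CPM, with no call. Hp was 90.3-fold (95% interval 24.8 to 749) higher at day 2, at 0.359, 32.4, 3.43 and 3.49 CPM, on 2 untreated UMIs. Hmox1 stood at 2.51, 13.2, 11 and 6.72 CPM and was not measured. Scaling on the median gene moves all thick ascending limb ratios down by 0.15, 0.49 and 0.50 on the log2 scale at days 2, 7 and 30. With it the day 7 ratio of Acsl4 was 1.51, and without mitochondrial UMIs 1.71, no longer a call. The Tfrc call was lost with a mitochondrial limit of 20%, at a ratio of 0.532, and that of Hp with free RNA subtracted, where it fell under the measured minimum at a ratio of 103. Cells cut to a common UMI floor put the Ftl1 ratios at days 2 and 7 at 1.10 and 1.12 in place of 0.735 and 0.726. Of 19 members measured at each time, 3 were higher and 0 lower at day 2, 3 and 0 at day 7, and 1 and 2 at day 30, where the whole table gave 12.4% of genes higher and 11.1% lower, 21.3% of genes higher and 8.72% lower and 23.6% of genes higher and 8.42% lower.

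Distal segments showed the largest change in the transferrin receptor, whose 4 matched hairpins were printed above. Distal convoluted and connecting tubule cells stood at 139 CPM for Tfrc untreated, the highest of the tubule classes there, and at 20.9 at day 2, 6.66-fold (95% interval 5.22 to 8.58) lower. The 11 and 40 cells of days 7 and 30 stood at 10.2 and 165 CPM and were not compared. The genes of highest fold in this gate included Pvalb, Calb1 and S100g untreated and at day 30, but not at day 2. The cells gated may thus differ between libraries, and the part of this in the ratios of this gate was not tested. Principal cells stood at 49.7, 13.1, 14.2 and 24.7 CPM, 3.8-fold (95% interval 2.74 to 5.33) lower at day 2 and 2.01-fold (95% interval 1.39 to 2.97) at day 30, a call lost with a background factor of 2 for the gates, at a ratio of 0.509. Intercalated cells stood at 46.2, 11.6, 6.56 and 26.4 CPM and were 3.98-fold (95% interval 2.34 to 7.34) lower at day 2. Tfrc was thus lower at day 2 in all 3 distal classes, while in proximal tubule the day 2 ratio was 1.24 (95% interval 0.966 to 1.57), and 0.91 with median scaling or 0.841 with the gate's minimum share doubled. The difference between segments was not tested.

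The other distal calls concerned Acsl4, Slc40a1, ferritin and heme genes. Acsl4 stood at 51.6, 123, 107 and 94.3 CPM in principal cells, 2.39-fold (95% interval 1.97 to 2.90) higher at day 2, and at 104, 296, 173 and 223 CPM in intercalated cells, 2.84-fold (95% interval 2.50 to 3.22) higher at day 2 and 2.15-fold (95% interval 1.85 to 2.48) at day 30. In distal convoluted and connecting tubule it stood at 84.5, 164, 122 and 153 CPM, with a day 2 ratio of 1.94 (95% interval 1.65 to 2.29). Slc40a1 was 3.04-fold (95% interval 2.17 to 4.36) higher in distal convoluted and connecting tubule and 2.17-fold (95% interval 1.5 to 3.09) in intercalated cells at day 2. Principal cells had ratios of 1.67 (95% interval 1.31 to 2.15) and 1.97 (95% interval 1.48 to 2.62) at days 2 and 30, short of a call. Slc40a1 levels were 17.6, 53.4, 78.2 and 56.0 CPM, 16.1, 34.9, 50.3 and 25.4 CPM and 35.7, 59.7, 61.7 and 70.3 CPM in the 3 classes. Blvra was 2.47-fold (95% interval 1.82 to 3.38) lower in distal convoluted and connecting tubule at day 2, at 45.5, 18.4, 27.2 and 29.2 CPM.

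Under the settings used throughout, intercalated cells were the class with a Fth1 call against untreated. Fth1 stood there at 4918 CPM untreated and 2193, 2339 and 2949 CPM on days 2, 7 and 30, 2.24-fold (95% interval 2.16 to 2.33) lower at day 2, and Ftl1 at 2382, 1793, 1923 and 1061 CPM, 2.25-fold (95% interval 2.11 to 2.39) lower at day 30. Other settings added Fth1 calls elsewhere. In proximal tubule the ratios were 0.371 and 0.44 at days 7 and 30 with median scaling and 0.496 at day 7 without mitochondrial UMIs. In thick ascending limb at day 30 they were 0.419 with median scaling, 0.491 with free RNA subtracted and 0.498 without mitochondrial UMIs. In intercalated cells Alas1 was 2.42-fold (95% interval 1.63 to 3.74) lower at day 2, at 52.2, 21.6, 43.7 and 60.7 CPM. The genes of highest fold in the intercalated gate included Slc4a1 untreated and Slc26a4 in each IRI library. The cells gated may thus differ between libraries, and the part of this in the intercalated ratios, Tfrc and Acsl4 included, was not tested. In principal cells Fth1 stood at 3155, 2574, 2307 and 2912 CPM, Ftl1 at 1657, 1482, 1507 and 1036 CPM and Gpx4 at 517, 368, 496 and 389 CPM, with no call. Gpx4 was uncalled as well in distal convoluted and connecting tubule, at 559, 481, 466 and 367 CPM, and in intercalated cells, at 501, 420.0, 605 and 443 CPM. Distal convoluted and connecting tubule stood at 5072, 3918, 2930.1 and 3859 CPM for Fth1 and 1661, 1378, 1074 and 876 CPM for Ftl1, also with no call. Slc7a11 was not measured in any tubule class: its levels were 0.538, 6.30, 3.09 and 3.24 CPM in thick ascending limb, 0, 2.77, 0 and 4.87 in distal convoluted and connecting tubule, 0, 3.70, 2.37 and 14.3 in principal cells and 0, 0.83, 0 and 2.94 in intercalated cells.

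Hmox1 and Hp were called higher at day 2 in each distal class. Hmox1 stood at 6.43, 20.4, 3.40 and 0 CPM in distal convoluted and connecting tubule, 3.17-fold (95% interval 1.82 to 5.93) higher, at 9.49, 22.5, 8.69 and 17.6 CPM in principal cells, 2.37-fold (95% interval 1.51 to 3.85) higher, and at 6.08, 29.9, 19.7 and 14.7 CPM in intercalated cells, 4.92-fold (95% interval 3.12 to 7.68) higher. Hp stood at 0, 21.4, 0 and 0 CPM in distal convoluted and connecting tubule and 0, 28.2, 10.9 and 0.979 CPM in intercalated cells. With 0 untreated UMIs in both, the lower 95% limits of the day 2 ratio were 13.3 and 60.8. In principal cells Hp stood at 0.38, 24.9, 2.37 and 2.60 CPM, 65.7-fold (95% interval 11.5 to 2619) higher, on 1 untreated UMI. Subtracting free RNA left 2 of the 4 calls of principal cells at day 2.

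Gpx4 aside, the members never called in tubule had these ranges over the 5 classes and 4 libraries. The ferritin chaperones Pcbp1 and Pcbp2 lay at 148 to 337 and 232 to 418 CPM, and the iron sensors and regulators Fbxl5, Ireb2 and Aco1 at 31.9 to 74.8, 24.3 to 61.1 and 30.7 to 139 CPM. Slc3a2 lay at 65.7 to 176 CPM and Lpcat3 at 41.6 to 71.4 CPM. The heme genes Blvrb, Slc48a1 and Fech lay at 17.5 to 51.0, 36.4 to 95.3 and 10.2 to 46.4 CPM. Low members were Aifm2 at 4.92 to 21.9 CPM, Heph at 0.88 to 24.9, Slc11a2 at 6.80 to 47.1, Ncoa4 at 2.43 to 13.1 and Steap3 at 0 to 12.2. The phagocyte genes Slc11a1 and Cd163 reached at most 5.86 and 0.596 CPM in any tubule class, and Hpx 2.81 CPM.

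Of 20 members measured in distal convoluted and connecting tubule at day 2, 3 were higher and 2 lower, where the whole table gave 14.5% of genes higher and 9.8% lower. Principal cells had 3 higher and 1 lower of 20 at day 2, where the whole table gave 7.75% of genes higher and 8.86% lower, and 2 higher and 1 lower of 20 at day 30, where the whole table gave 11.0% of genes higher and 6.89% lower. Intercalated cells had 5 higher and 3 lower of 24 at day 2, where the whole table gave 10.3% of genes higher and 7.92% lower, and 2 higher and 1 lower of 20 at day 30, where the whole table gave 9.66% of genes higher and 4.63% lower. The members' median log2 ratio lay between -0.15 and 0.17 in these 5 comparisons, and that of all genes between -0.03 and 0.19.

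Neutrophil RNA was present in every tubule class at day 2, so the ratio of a member to a neutrophil marker was compared between classes. The 9-gene neutrophil list summed to 1097 to 1717 CPM in the tubule classes at day 2 and to at most 12.3 CPM untreated. Per 100 UMIs of the neutrophil marker S100a8, Hp had 3.24 (3.20 to 3.29) UMIs in neutrophils and 4.83 (3.84 to 6.0) in distal convoluted and connecting tubule, 4.90 (4.34 to 5.52) in thick ascending limb, 5.58 (4.52 to 6.82) in principal cells, 6.32 (4.33 to 8.94) in intercalated cells and 8.07 (6.31 to 10.2) in proximal tubule, with 95% intervals in parentheses. All 5 tubule ratios lay above the neutrophil one, and none of their intervals included it.

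Slc7a11 gave a different picture. It had 0.903 (0.879 to 0.927) UMIs per 100 S100a8 UMIs in neutrophils, 0.943 (0.43 to 1.80) in proximal tubule and 0.953 (0.719 to 1.24) in thick ascending limb. In all 5 tubule classes the interval included the neutrophil value, on 1 to 56 Slc7a11 UMIs a class, and the part of neutrophil RNA in them was not tested. In mononuclear phagocytes the ratio was 3.55 (3.26 to 3.86), above it. Slc40a1 had 0.606 (0.586 to 0.625) UMIs per 100 S100a8 UMIs in neutrophils and 7.81 (5.56 to 10.7) to 15.0 (13.9 to 16.1) in the tubule classes; none of these intervals included the neutrophil value. Mononuclear phagocytes had 18 (17.3 to 18.7) for Slc40a1 and 17.4 (16.7 to 18.1) for Hp, so that the tubule ratios of both genes lay between the neutrophil and the mononuclear ones. For Hmox1 the marker was Lyz2 of mononuclear phagocytes, which had 10.3 (10.2 to 10.5) Hmox1 UMIs per 100 there. The ratio was 29.2 (22.8 to 37.1) in proximal tubule, 28.3 (19.0 to 41.3) in intercalated cells and 20.8 (16.2 to 26.5) in distal convoluted and connecting tubule. Thick ascending limb, at 13.1 (10.7 to 15.9), lay just above the mononuclear ratio. In principal cells, at 12.4 (9.90 to 15.5), the interval included the mononuclear value. Taking 10% of each class as free RNA of its library left an Hmox1 ratio to untreated of 1.99 in proximal tubule at day 2, below the size rule.

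**Figure D4:**
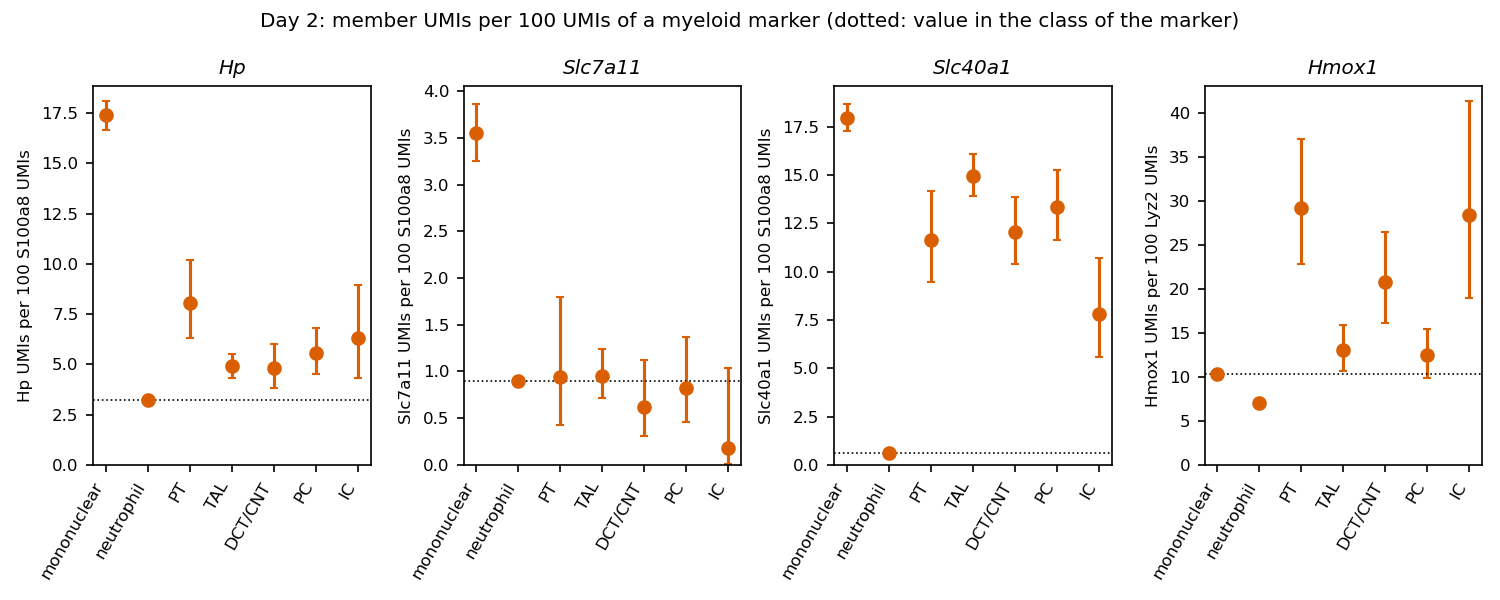
UMIs of Hp, Slc7a11 and Slc40a1 per 100 S100a8 UMIs and of Hmox1 per 100 Lyz2 UMIs (y axes, linear from 0) in each gated class of the day 2 library (x axis), with exact 95% intervals and a dotted line at the neutrophil value for S100a8 and at the mononuclear value for Lyz2. Tubule classes lie above the line for Hp and Slc40a1 and around it for Slc7a11.

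Ceruloplasmin was the member with the largest ratios in tubule at days 7 and 30. Cp stood at 2.35 CPM untreated and 61.8, 445 and 357 CPM on days 2, 7 and 30 in proximal tubule, 26.3-fold (95% interval 17.9 to 39.3), 189-fold (95% interval 139 to 265) and 152-fold (95% interval 111 to 213) higher. It stood at 0.179, 15.5, 84.4 and 96.4 CPM in thick ascending limb, 470.1-fold (95% interval 83.6 to 18641) and 537-fold (95% interval 95.8 to 21264) higher at days 7 and 30, on 1 untreated UMI. Principal cells stood at 3.8, 1.23, 82.2 and 55.3 CPM, 14.6-fold (95% interval 7.54 to 31.5) higher at day 30. Intercalated cells stood at 3.93, 58.9, 435 and 91.0 CPM, 15.0-fold (95% interval 9.79 to 23.4) higher at day 2 and 23.1-fold (95% interval 15.4 to 35.6) at day 30. Distal convoluted and connecting tubule stood at 4.29, 3.28, 61.2 and 60.8 CPM. In cells thinned to 2000 UMIs, 0.955, 7.77, 49.3 and 44.2% of proximal tubule cells had a Cp UMI, and 1.91, 22.3, 93.1 and 74.6% unthinned. Mononuclear phagocytes, set beside them, had 1.67, 0.527, 12.5 and 12.8% thinned and 3.33, 3.59, 46.4 and 37.1% unthinned. At day 7 the median depths of the 2 classes were 25158 and 22445 UMIs.

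Among the gates set out here the highest Cp levels lay outside tubule, in cells gated by parietal epithelial markers, at 915, 1003, 694 and 1204 CPM. That gate held 33.3, 32.2, 11.3 and 42.1% of each library's Cp UMIs. At day 30 the other gates stood at 282 CPM in stroma, 134 in urothelium, 117 in endothelium, 87.4 in 12 lymphoid cells and 69.1 in mononuclear phagocytes. Each of these gates thus held Cp UMIs at day 30, lymphoid cells included, and the part of free RNA in the lower values was not tested. With 10% of each class taken as free RNA, the day 30 ratio in mononuclear phagocytes was 2.34 and no longer a call, and that in proximal tubule was 245. In proximal tubule the day 7 and day 30 levels lay above those of all other tubule classes, with the 20 intercalated cells of day 7 closest, at 435 CPM.

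Trf in principal cells at day 30 is a further value of this kind. It was 14.1-fold (95% interval 5.03 to 54.9) higher than untreated, at 1.52, 2.47, 4.74 and 21.5 CPM. Per 100 Lyz2 UMIs it had 3.52 (2.41 to 4.98) UMIs there and 2.35 (2.30 to 2.40) in mononuclear phagocytes. The 19-gene mononuclear list summed to 483 CPM in principal cells at day 30 and 19.7 CPM untreated, and free RNA subtraction took the ratio to 6.07 and ended the call. Mononuclear phagocytes held 89.2% of the library's Trf UMIs at day 30. Of the 11 tubule comparisons, Trf was measured in this 1 alone. Thick ascending limb stood at 0.179, 2.93, 19.9 and 16.9 CPM, under the minimum of 20 CPM. Per 100 Lyz2 UMIs at day 30, Trf had 3.58 UMIs in proximal tubule, 2.88 in thick ascending limb, 3.13 in distal convoluted and connecting tubule and 1.24 in intercalated cells.

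The balance of the ferritin chains differed between libraries and between classes. The ratio of Fth1 to Ftl1 UMIs, which compares a class with another class or library and not the chains with each other, was 1.59, 1.13, 1.48 and 3.45 in mononuclear phagocytes, untreated and at days 2, 7 and 30. In proximal tubule it was 1.87, 2.46, 2.36 and 3.65, in principal cells 1.90, 1.74, 1.53 and 2.81 and in intercalated cells 2.06, 1.22, 1.22 and 2.78. Thick ascending limb stood apart at day 2, with 2.73, 5.02, 3.05 and 3.70. In 4 of these 5 classes the day 30 library had the highest ratio, the exception being thick ascending limb. Distal convoluted and connecting tubule stood at 3.05, 2.84, 2.73 and 4.41 and neutrophils at 1.65, 1.95, 3.19 and 3.51. Both were highest at day 30 as well, on under 50 cells there. Over all barcodes the ratio was 1.92, 1.45, 1.78 and 3.42, so it was highest at day 30 in the library as a whole too. A property of that capture and a property of that time cannot be told apart with 1 library per time.

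**Figure D5:**
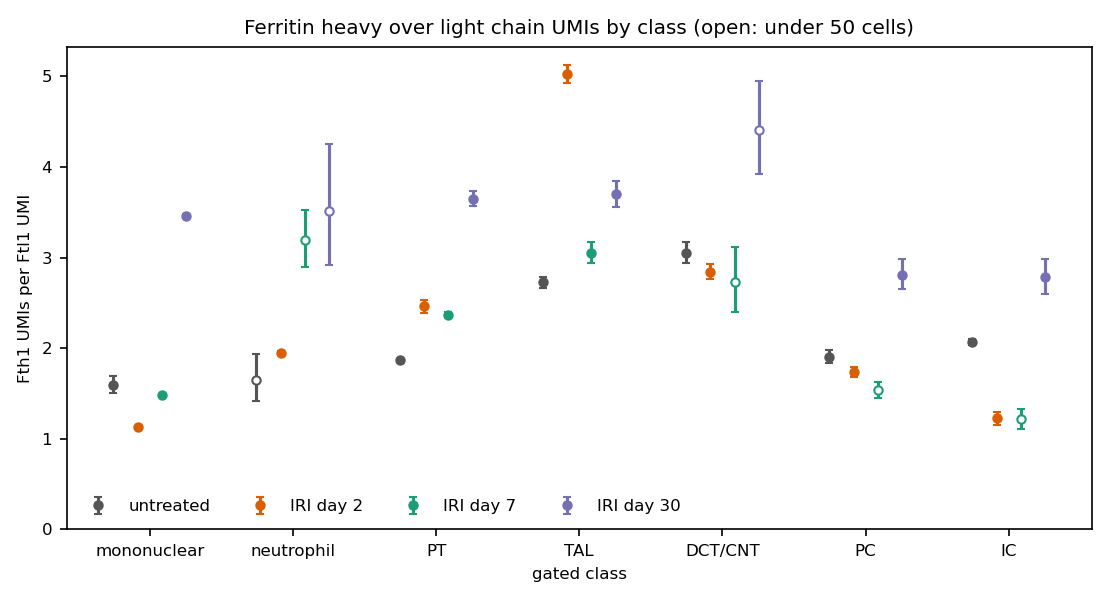
Fth1 UMIs per Ftl1 UMI (y axis, linear from 0) by gated class (x axis) and library (colour), with exact 95% intervals and open points for classes under 50 cells. The day 30 points are the highest in mononuclear phagocytes, proximal tubule, principal cells and intercalated cells, at 3.45, 3.65, 2.81 and 2.78, and the day 2 thick ascending limb stands at 5.02. The open day 30 points of neutrophils and of distal convoluted and connecting tubule, at 3.51 and 4.41, are also the highest of their classes.

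Within the mononuclear phagocytes, cells with many UMIs of the complement genes C1qa, C1qb and C1qc, typical of tissue macrophages, stood higher for Slc40a1, Trf, Slc11a1 and, at day 30, Fth1 than cells with few. At day 2 they stood at 108 against 44.7 CPM for Slc40a1, 119 against 59.9 for Trf and 816 against 609.9 for Hmox1, in 1406 and 1439 cells. At day 30, in 1291 and 1094 cells, Fth1 stood at 20681 against 10313 CPM, Slc11a1 at 109 against 37.9 and Trf at 411 against 244. Slc7a11 went the other way at day 2, with 11.2 against 20.3 CPM. Between 15 and 105 cells of each IRI library lay near the boundary, which splits a range and does not define cell types. Hmox1 at day 2 exceeded its untreated level on both sides of it.

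Proximal tubule cells of day 7 were split by Havcr1 (Kim-1), the injury marker, into 391 high and 187 low cells, with 69 near the boundary. Cp stood at 504 CPM in the high and 313 in the low cells, Acsl4 at 132 and 60.9, and Slc40a1 at 138 and 97.6. Fth1 was lower in the high cells, at 4590.4 against 7116 CPM. Havcr1 is itself 1 of the markers of the proximal tubule gate, so cells rich in it could enter on that gene and the others had to enter on the remaining markers. The differences between the high and the low cells are in part set by that gate. With Havcr1 left out of the gate, the day 7 ratio of Hmox1 to untreated was 1.91, no longer a call, and that of Hp 54.9, where Hp fell under the measured minimum.

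Set against proximal tubule of the same library, mononuclear phagocytes kept 1 direction for 4 members throughout. Trf and Blvrb were called higher in them in all 4 libraries, and Aco1 and Gpx4 lower in all 4. Gpx4 was 3.19-fold (95% interval 2.66 to 3.85) lower untreated and 2.86-fold, 2.54-fold and 3.69-fold lower at days 2, 7 and 30. The Hmox1 ratio, called in the 3 IRI libraries, was 1.94 (95% interval 0.879 to 3.75) untreated and 11.5 (95% interval 9.34 to 14.3), 3.52 (95% interval 3.16 to 3.92) and 4.08 (95% interval 3.46 to 4.84) later. Both ferritin chains were called higher in mononuclear phagocytes at days 7 and 30 and at neither earlier time. Of 21, 24, 26 and 25 members measured, 3, 4, 9 and 8 were higher and 7, 9, 4 and 7 lower, where the whole table gave 29.9% of genes higher and 20.6% lower untreated, 24.5% of genes higher and 25.8% lower at day 2, 15.0% of genes higher and 21.8% lower at day 7 and 17.8% of genes higher and 24.4% lower at day 30. Cells of 1 library share its free RNA.

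Against the other tubule classes the members gave these counts, each with the share of all measured genes called in parentheses. The untreated library had 7 higher and 2 lower of 20 against thick ascending limb (20.6% of genes higher and 19.9% lower), 4 higher and 3 lower of 19 against distal convoluted and connecting tubule (19.5% of genes higher and 19.6% lower), 5 higher and 4 lower of 20 against principal cells (13.2% of genes higher and 25.3% lower) and 5 higher and 4 lower of 20 against intercalated cells (16.0% of genes higher and 25.1% lower). At day 2 there were 8 higher and 3 lower of 22 against thick ascending limb (23.3% of genes higher and 20.6% lower), 8 higher and 4 lower of 22 against distal convoluted and connecting tubule (23.4% of genes higher and 22.9% lower), 8 higher and 2 lower of 22 against principal cells (19.4% of genes higher and 24.0% lower) and 10 higher and 7 lower of 26 against intercalated cells (20.2% of genes higher and 28.5% lower). At day 7 there were 10 higher and 2 lower of 23 against thick ascending limb (15.0% of genes higher and 20.6% lower). At day 30 there were 11 higher and 2 lower of 23 against thick ascending limb (15.1% of genes higher and 23.6% lower), 9 higher and 3 lower of 24 against principal cells (14.3% of genes higher and 25.0% lower) and 9 higher and 3 lower of 25 against intercalated cells (17.1% of genes higher and 25.8% lower). Hmox1 was 54.6-fold (95% interval 45.6 to 66.1) higher than in thick ascending limb at day 2, 10.1-fold (95% interval 7.12 to 14.9) at day 7 and 14.1-fold (95% interval 9.66 to 21.4) at day 30.

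A further list of 79 iron, heme and ferroptosis genes gives the setting. In mononuclear phagocytes it had 43 measured, 8 higher and 7 lower at day 2, 43 measured, 9 higher and 5 lower at day 7 and 41 measured, 7 higher and 6 lower at day 30. Over all measured, 12.8% of genes higher and 11.9% lower, 11.5% of genes higher and 9.29% lower and 9.51% of genes higher and 8.81% lower were called in that order. The largest ratios there, each with its untreated and IRI level, were those of Slc25a37 (3.28 and 26.1 CPM, 7.95-fold higher), a mitochondrial iron importer, Hspb1 (9.85 and 78.2 CPM, 7.93-fold higher), a small heat shock protein, and Lrp1 (39.4 and 216 CPM, 5.48-fold higher), the receptor for hemopexin-bound heme. They belong to days 2, 7 and 30 in that order. The lowest, all at day 2, were Nox4 (29.6 and 0.5 CPM, 59.2-fold lower), an NADPH oxidase, Abcg2 (138 and 8.83 CPM, 15.6-fold lower), a porphyrin exporter, and Gss (42.7 and 11.2 CPM, 3.83-fold lower), which completes glutathione. They rest on 9, 42 and 13 UMIs in the 60 untreated cells, with 95% intervals of 23.4 to 139, 11 to 21.6 and 2.02 to 6.62. Untreated proximal tubule held 189 CPM of Nox4, and the proximal tubule list summed to 1789.8 and 16.2 CPM in the mononuclear phagocytes of the same libraries. The part of that RNA in the 3 ratios was not tested.

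In proximal tubule the list had 43 measured, 6 higher and 1 lower at day 2, 42 measured, 7 higher and 2 lower at day 7 and 41 measured, 6 higher and 2 lower at day 30, where all measured gave 19.0% of genes higher and 4.08% lower, 36.5% of genes higher and 9.03% lower and 29.2% of genes higher and 5.23% lower. Its share called higher was thus under that of all genes at each time. Its leading genes were Ptgs2 (0.117 and 60.4 CPM, 515-fold higher), a cyclooxygenase used as a ferroptosis marker, at day 2, and at day 7 Lcn2 (0.645 and 207 CPM, 321-fold higher), which binds siderophore iron, and Hspb1 (3.40 and 942 CPM, 277-fold higher). The lowest were Nox4 (189 and 74.5 CPM, 2.54-fold lower) at day 30 and, at day 7, Cisd1 (647 and 287 CPM, 2.25-fold lower), an iron-sulfur protein of the mitochondrial surface, and Por (207 and 93.7 CPM, 2.21-fold lower), an electron donor in lipid peroxidation. Ptgs2 in neutrophils at day 2 was 2913 CPM. The neutrophil marker S100a8 stood at 39751 CPM in neutrophils and at 670 CPM in proximal tubule of that library. The part of neutrophil RNA in the tubule ratios of Ptgs2 was not tested. In thick ascending limb the counts were 46 measured, 8 higher and 4 lower, 46 measured, 6 higher and 4 lower and 46 measured, 7 higher and 4 lower, beside 12.4% of genes higher and 11.1% lower, 21.3% of genes higher and 8.72% lower and 23.6% of genes higher and 8.42% lower over all measured. They were led by Lcn2 (17 and 1671 CPM, 98.0-fold higher) at day 7 and Hspb1 (23.7 and 410.0 CPM, 17.3-fold higher) and Ptgs2 (8.25 and 83.4 CPM, 10.1-fold higher) at day 2. The lowest there were Abcg2 (78.6 and 4.16 CPM, 18.9-fold lower) and Cisd1 (680.5 and 210.2 CPM, 3.24-fold lower) at day 2 and Prom2 (30.0 and 7.54 CPM, 3.97-fold lower), which exports ferritin in vesicles, at day 7. The proximal tubule gene Slc34a1 stood in thick ascending limb at 533 CPM untreated and at 3.38 and 16.8 CPM at days 2 and 7. The part of proximal tubule RNA in these lower ratios was not tested.

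In the distal classes the list had 45 measured, 8 higher and 10 lower in distal convoluted and connecting tubule at day 2, 46 measured, 5 higher and 6 lower and 45 measured, 5 higher and 4 lower in principal cells at days 2 and 30, and 46 measured, 5 higher and 9 lower and 47 measured, 4 higher and 4 lower in intercalated cells. All measured gave, in that order, 14.5% of genes higher and 9.8% lower, 7.75% of genes higher and 8.86% lower, 11.0% of genes higher and 6.89% lower, 10.3% of genes higher and 7.92% lower and 9.66% of genes higher and 4.63% lower. Lcn2 led in the first 2 classes, at 1136 CPM against 0.429 and at 2896 against 94.2 at day 2. In intercalated cells it stood at 349 CPM at day 30 against 0.238 untreated. The lowest genes were Abcg2 (66.5 and 1.51 CPM, 44.0-fold lower) in distal convoluted and connecting tubule, Nox4 (28.5 and 4.20 CPM, 6.79-fold lower) in principal cells and Abcg2 (63.0 and 0.83 CPM, 75.9-fold lower) in intercalated cells. These gates also lost proximal tubule RNA. In the same class order Slc34a1 stood at 530, 535 and 434 CPM untreated and at 3.53, 11.1 and 1.66 CPM at day 2. The part of that RNA in these ratios was not tested. In neutrophils against mononuclear phagocytes at day 2, the list had 41 measured, 10 higher and 17 lower, beside 21.4% of genes higher and 33.5% lower over all measured, from Steap4, a ferrireductase, at 289 against 4.08 CPM, to Fads1, a fatty acid desaturase, at 3.37 against 24.7 CPM.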

How the data were processed

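Kidney cells sorted for GFP were read in 4 droplet libraries of 3′ chemistry, per the labels' protocols. The deposited matrices hold raw UMI counts per gene and barcode, per the file headers, with no normalization. Cell Ranger 7.0.1 and build mm10 are named, per the submitters' processing notes. How barcodes were selected was not given in the sources used here, nor was the annotation.

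Barcodes with at least 500 UMIs, 300 genes and at most 50% mitochondrial UMIs were kept, and Scrublet (scanpy 1.11.5) removed doublets. Gates, calls and intervals are described with the results (Python 3.11.15, numpy 2.4.6, scipy 1.17.1, pandas 2.3.3, matplotlib 3.10.9). The rule that turns marker lists into gates was set after the data were seen. Members and lists were chosen with earlier results of these data known. Named with values are the members called in a class and 8 more (Hmox1, Fth1, Ftl1, Slc40a1, Tfrc, Gpx4, Slc7a11, Acsl4), others by counts and ranges or where a role calls for them, and up to 3 listed pathway genes per direction and class. Medians use log2((CPM + 10)/(CPM + 10)). The calling script was tested on simulated data. Alternatives covered scaling, filters, gates, doublets, depth and free RNA. With 1 library per group, precision is that of counting alone.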

Additional observations from a re-analysis of the deposited data

Results flagged for a closer look

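Alas1, which starts heme synthesis, was called in opposite directions in 2 tubule classes at day 2. It was 2.72 times the untreated level in proximal tubule-gated cells and 0.414 times that level in intercalated cells. The levels were 34.9 CPM untreated and 94.8 at day 2 in the former, and 52.2 CPM untreated and 21.6 at day 2 in the latter. The difference between the classes was not tested, since each value rests on 1 library per time. Genes of highest fold in the intercalated gate included Slc4a1 untreated and Slc26a4 at day 2, so the cells gated may differ. The part of this in the Alas1 ratio was not tested. Scaling on the median gene lowered the proximal tubule ratio to 1.99, short of a call.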

How the results depend on the processing

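Of 225 counts of called members under other settings, 214 stayed within 1.5 times the main count. With no minimum CPM, the counts were 15 in place of 9 for neutrophils over mononuclear phagocytes, 10 and 9 in place of 6 and 3 in proximal tubule at days 7 and 30, and 9, 6 and 6 in place of 3 each in thick ascending limb at days 2, 7 and 30. With median scaling they were 11 and 7 in place of 6 and 3 in proximal tubule at days 7 and 30, of which 4 and 1 were higher, and 6 in place of 3 in thick ascending limb at day 30. Principal cells had 2 in place of 4 at day 2 with free RNA subtracted and 5 in place of 3 at day 30 with a mean of cells.

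Of 3433 single values, 3232 kept their direction and their side of the size rule, 88 became calls, 78 lost theirs, 33 moved and 2 reversed. The reversed ones are Hp in mononuclear phagocytes over thick ascending limb at day 2, at 0.722 with a common UMI floor, and Slc40a1 in mononuclear phagocytes at day 30, at 0.438 with neutrophils joined. The causes were not tested. The common UMI floor left under 50 cells on a side in 15 comparisons and was not run there. The gate with a background factor of 2 was added after seeing the data. No paired analysis was possible because each group holds 1 library. Of the classes compared with the untreated library, depth limits the untreated mononuclear phagocytes most, where 1 UMI is worth 3.28 CPM.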
